A study of Mus musculus with 20 samples.

Results

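The sites described here are the acetylated histone regions of young mouse liver that carried the methyltransferase Setdb1 without its partner Kap1. They were defined as peaks of acetylated lysine 14 of histone H3 (H3K14ac) in young liver, on chromosomes 1 to 19, that shared at least 1 bp with a young Setdb1 peak and no base with a young Kap1 peak. There were 324 such sites among 18885 autosomal young H3K14ac peaks, and they are called Setdb1-only H3K14ac peaks below. The sites were thus chosen by the measured young H3K14ac, Setdb1 and Kap1 calls, and the presence of Setdb1 and the absence of Kap1 on them are a definition and not a result.

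H3K14ac is laid down by lysine acetyltransferases and is a mark of open, active chromatin at promoters and enhancers. Setdb1 is a methyltransferase that places methyl groups on lysine 9 of histone H3, a mark of silent chromatin, and it is known for silencing endogenous retroviruses. Kap1, the product of Trim28, is the adaptor through which zinc finger proteins of the KRAB family bring Setdb1 to DNA, so that a Setdb1 site lacking Kap1 is a site without its best known recruiter in the same list.

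Chromatin was prepared from the livers of wild-type male C57BL/6 mice of 2 ages, young (3 months) and old (21 months), with no treatment in either group. H3K14ac and Setdb1 were each precipitated from 3 livers per age and Kap1 from 2 livers per age. The reads of the livers of an age were pooled before peaks were called, so each of the 6 peak lists stands for 1 pooled sample, no spread between livers can be given, and no difference between ages was tested. Liver is a mixture of hepatocytes and other cells, and a site lost from a cell type cannot be told apart from a smaller share of those cells. The lists held 19350 young and 20463 old H3K14ac peaks, 50583 young and 13877 old Setdb1 peaks, and 48915 young and 22141 old Kap1 peaks. They give positions without peak heights, so the depth behind a peak is unknown, and the intervals given below (95% Wilson for a share, 95% Newcombe for a difference of shares) cover counting error only, with peaks treated as independent, although neighbouring peaks share the same libraries.

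The Setdb1 peaks of 8 sites are shown first, as examples of the commonest kind, a single Setdb1 peak of 200 bp. Wider Setdb1 peaks, and those over an annotated UTR or an exon of a noncoding gene, were not considered. The first 4 lie near start sites of protein-coding genes. The next 2 lie between genes, also had an old Setdb1 peak and had all 200 bp of Setdb1 inside the H3K14ac peak. The last 2 are intergenic sites whose GC content came nearest to the median of the whole group among those with no old peak and with all 200 bp of Setdb1 inside the H3K14ac peak. A further such site, chr15:17854922-17855421, had the same GC content as the last, 44.8% over the H3K14ac peak, and is not shown. Each is the GRCm38 reference sequence of the 200 bp Setdb1 peak, plus strand, 5′ to 3′, with the bases shared with the H3K14ac peak in capitals.
Dctn6, chr8:34108161-34108360: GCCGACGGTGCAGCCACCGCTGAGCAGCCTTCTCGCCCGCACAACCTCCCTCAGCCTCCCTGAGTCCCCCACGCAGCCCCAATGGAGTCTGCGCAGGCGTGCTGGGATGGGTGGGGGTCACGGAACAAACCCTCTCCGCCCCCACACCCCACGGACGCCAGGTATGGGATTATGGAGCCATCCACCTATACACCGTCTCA
Fastkd3 and Mtrr, chr13:68582722-68582921: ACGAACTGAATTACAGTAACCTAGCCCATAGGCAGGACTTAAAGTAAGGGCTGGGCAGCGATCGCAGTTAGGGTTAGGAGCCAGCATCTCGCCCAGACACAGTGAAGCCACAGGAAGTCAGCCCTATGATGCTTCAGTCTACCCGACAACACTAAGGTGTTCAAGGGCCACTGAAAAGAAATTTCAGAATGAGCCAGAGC
Cdh3, chr8:106511167-106511366: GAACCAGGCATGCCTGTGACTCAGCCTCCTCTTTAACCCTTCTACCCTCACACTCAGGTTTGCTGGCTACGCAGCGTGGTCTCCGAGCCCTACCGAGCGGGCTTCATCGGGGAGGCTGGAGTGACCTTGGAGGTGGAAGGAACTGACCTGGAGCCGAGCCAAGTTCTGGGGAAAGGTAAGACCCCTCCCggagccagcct
Olfr821, chr10:130029660-130029859: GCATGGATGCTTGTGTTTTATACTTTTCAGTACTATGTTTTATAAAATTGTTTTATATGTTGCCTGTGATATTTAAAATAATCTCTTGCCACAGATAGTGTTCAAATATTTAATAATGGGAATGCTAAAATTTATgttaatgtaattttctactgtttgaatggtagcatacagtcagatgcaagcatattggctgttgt
Intergenic, old Setdb1 peak, chromosome 14, chr14:40593769-40593968: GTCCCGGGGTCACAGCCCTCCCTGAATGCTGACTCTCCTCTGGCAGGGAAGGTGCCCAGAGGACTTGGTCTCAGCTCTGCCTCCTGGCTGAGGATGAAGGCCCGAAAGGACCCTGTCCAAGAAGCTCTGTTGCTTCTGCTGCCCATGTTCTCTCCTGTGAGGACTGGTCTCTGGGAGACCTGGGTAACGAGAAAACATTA
Intergenic, old Setdb1 peak, chromosome 16, chr16:15434215-15434414: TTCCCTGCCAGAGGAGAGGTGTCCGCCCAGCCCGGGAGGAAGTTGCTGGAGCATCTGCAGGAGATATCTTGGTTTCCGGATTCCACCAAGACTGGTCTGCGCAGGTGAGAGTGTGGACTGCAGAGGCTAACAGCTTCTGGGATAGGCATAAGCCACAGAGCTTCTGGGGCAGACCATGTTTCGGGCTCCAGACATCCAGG
Intergenic, GC near the median, chromosome 12, chr12:95117673-95117872: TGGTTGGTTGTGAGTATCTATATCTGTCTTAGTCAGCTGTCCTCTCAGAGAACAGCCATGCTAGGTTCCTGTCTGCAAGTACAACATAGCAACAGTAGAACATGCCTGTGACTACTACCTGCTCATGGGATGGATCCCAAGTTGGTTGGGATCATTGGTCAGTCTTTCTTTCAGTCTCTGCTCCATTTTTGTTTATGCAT
Intergenic, GC near the median, chromosome 14, chr14:36147263-36147462: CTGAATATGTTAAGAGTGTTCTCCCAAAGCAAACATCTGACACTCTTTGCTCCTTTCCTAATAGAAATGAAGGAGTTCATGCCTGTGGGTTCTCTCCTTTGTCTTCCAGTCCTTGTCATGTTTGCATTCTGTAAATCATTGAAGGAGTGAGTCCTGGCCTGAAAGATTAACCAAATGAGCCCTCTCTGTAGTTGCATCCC

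The Dctn6 peak is a GC-rich promoter stretch with 13 CG dinucleotides and a GC content of 66.0%, and all of its 200 bp lie within the H3K14ac peak. The Fastkd3 peak lies just inside that gene, beyond its start and that of its divergent neighbour Mtrr, and held 5 CG dinucleotides at a GC content of 50.5%. At Cdh3, the gene of P-cadherin, 189 of the 200 bp were shared with H3K14ac. The peak near Olfr821, an olfactory receptor gene, shared 135 bp and held no CG dinucleotide at a GC content of 29.0%. Both printed intergenic sites with an old Setdb1 peak had a GC content of 58.0%, whereas the 2 sites of median composition held no CG dinucleotide and had GC contents of 44.5% and 43.0%. Over the H3K14ac peak the 2 with old Setdb1 had 51.8% and 56.0%, the highest among the intergenic sites with an old Setdb1 peak. The others of that kind ranged from 31.4% to 48.0%, so the printed pair does not stand for them.

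The overall frequency of the class was low. A young Setdb1 peak was found at 512 autosomal young H3K14ac peaks, the 2.71% background of the defining call, and 188 of those also had a Kap1 peak. Setdb1 was thus present at 324 of 16631 H3K14ac peaks without Kap1, or 1.95% (1.75% to 2.17%), and at 188 of 2254 with Kap1, or 8.34% (7.27% to 9.55%). The young Setdb1 list held 49271 autosomal peaks, and how many of these overlaps would arise by coincidence was not tested. The remaining peaks comprised 2066 with Kap1 only and 16307 with neither factor, and these 3 classes serve as comparison groups.

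The location of the Setdb1-only H3K14ac peaks differed from that of H3K14ac as a whole. Only 30 of the 324 lay within 1 kb of an annotated transcription start site, or 9.26% (6.56% to 12.9%), against 27.6% of all autosomal young H3K14ac peaks and 29.97% of those with neither factor. The difference from peaks with neither factor was -20.7 percentage points (-23.5 to -17.0). Within 5 kb of a start site the counts were 78 of 324, or 24.1% (19.7% to 29.0%), against a background of 42.9%. Peaks with Kap1 only were near start sites in 13.2% of cases, and the difference of the Setdb1-only peaks from them was -3.91 points with an interval of -7.00 to 0.00, which reaches 0. With both factors the share was 10.6%, and that difference (-1.38 points, -7.26 to 3.78) was within counting error. Scarcity within 1 kb of start sites was therefore common to the 3 classes with a factor and was not particular to the sites with Setdb1 alone. Within 5 kb the share was 35.9% with Kap1 only, and the Setdb1-only peaks were lower by a difference of -11.8 points (-16.7 to -6.49). With both factors it was 31.9%, and that difference (-7.84 points, -16.0 to 0.122) included 0.

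Most of the Setdb1-only H3K14ac peaks lay between genes. Their number there was 178 of 324, or 54.9% (49.5% to 60.3%), against 36.2% of peaks with neither factor, a difference of 18.7 points (13.2 to 24.1), and 38.5% of all autosomal young H3K14ac peaks. The share was 52.6% with Kap1 only (difference 2.32 points, -3.53 to 8.07) and 49.5% with both factors (5.47 points, -3.47 to 14.3), and both intervals included 0. A further 87 lay in introns (26.9%) and 29 over exons away from start sites (8.95%), shares that differed from those of peaks with neither factor by -0.65 points (-5.24 to 4.47) and 2.65 points (-0.02 to 6.28). The median gap to the nearest start site was 17138 bp, with quartiles of 5489 bp and 44771 bp. The corresponding medians were 7445 bp for peaks with neither factor, 8597 bp for Kap1 only and 9859 bp for both factors, so the Setdb1-only class was the most remote of the 4 by median. Its largest gap, 425676 bp, was below those of the other 3 classes, which reached 447334 bp to 660882 bp.

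**Figure D1:**
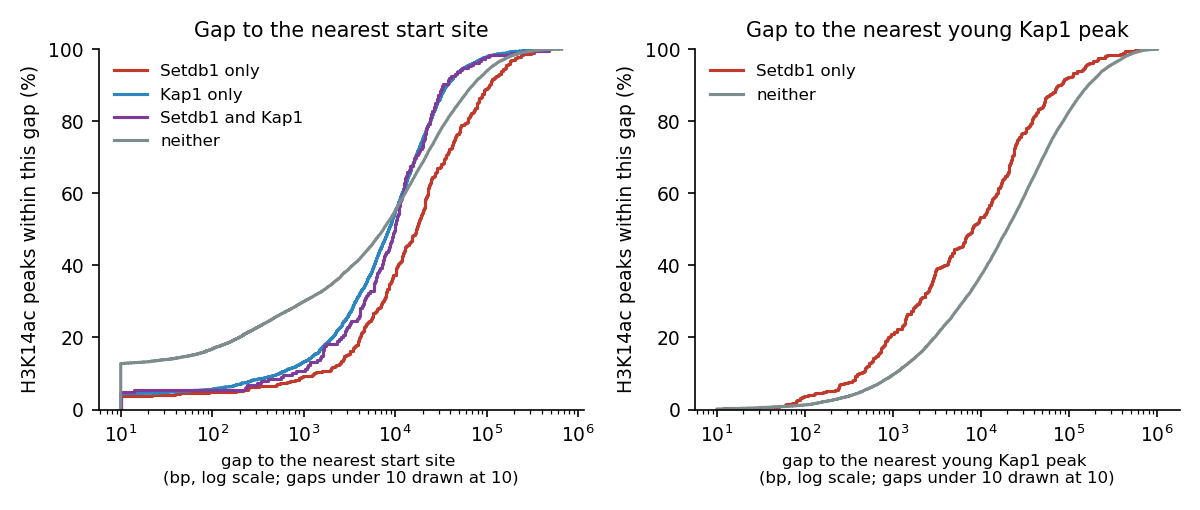
Cumulative share of young H3K14ac peaks (percent) within a given gap (bp, log scale) of the nearest start site, by class (left), and of the nearest young Kap1 peak for peaks without Kap1 (right). The line of the Setdb1-only peaks runs lowest on the left at 1 kb and at 5 kb, with a median gap of 17138 bp, and above the line of peaks with neither factor on the right, with medians of 7940 bp and 19819 bp.

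Although no Setdb1-only peak touched Kap1 by definition, many were close to it. The median gap to the nearest young Kap1 peak was 7940 bp (quartiles 1411 bp and 26348 bp), against 19819 bp for peaks with neither factor. A Kap1 peak lay within 5000 bp of 144 of the 324, or 44.4% (39.1% to 49.9%), against 35.8% of all autosomal young H3K14ac peaks, which include those with Kap1. The share was 26.8% of peaks with neither factor, a difference of 17.6 points (12.3 to 23.1), and the difference from all other young H3K14ac peaks was 8.76 points (3.398 to 14.2). Within 500 bp there was a Kap1 peak at 38 sites, or 11.7%, which was above the 5.56% of peaks with neither factor but below the 16.9% of all young H3K14ac peaks (difference from all others -5.30 points, -8.41 to -1.30), among which those with Kap1 count by definition. At the edges of the definition, 12 sites had a Kap1 peak within 100 bp, the nearest of them at 12 bp, 31 bp and 51 bp, and the peaks just outside shared as few as 1, 2 and 11 bp with Kap1. On the Setdb1 side, 4 sites shared under 10 bp with their Setdb1 peak, with 2, 3 and 3 bp as the smallest overlaps, whereas the nearest peaks left out missed a Setdb1 peak by 3, 3 and 6 bp. The site with 2 bp lay at chr4:137934415-137934914 in an intron of Ece1, the gene of an endothelin-converting enzyme.

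The fate of these sites in old liver was read from the old lists, which the definition did not use. An old H3K14ac peak overlapped 32 of the 324, or 9.88% (7.08% to 13.6%), against a background of 20.8% for all autosomal young H3K14ac peaks. The share was 18.9% for neither factor, 34.3% for Kap1 only and 59.0% for both factors. The Setdb1-only class was thus the lowest of the 4, with differences of -9.04 points from neither factor (-11.9 to -5.26), -24.4 from Kap1 only (-27.9 to -20.2) and -49.2 from both factors (-56.5 to -41.1). Within the class the share moved with the distance to young Kap1, being 21 of 144 or 14.6% with a Kap1 peak within 5000 bp and 11 of 180 or 6.11% without (difference 8.47 points, 1.86 to 15.7).

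An old Setdb1 peak was found at 9 sites, or 2.78% (1.47% to 5.19%), against a background of 1.04%, and at 0.656% of peaks with neither factor (difference 2.12 points, 0.805 to 4.54). The share for Kap1 only was 1.65%, a difference of 1.132 points whose interval (-0.328 to 3.59) included 0, and that for both factors was 24.5%. Old Kap1 peaks appeared at 25 sites, or 7.72% (5.28% to 11.1%), near the background of 8.23%. That background includes the peaks that already had Kap1 in young liver, and among peaks with neither factor the share was 2.70%, so that Setdb1-only peaks exceeded it by 5.01 points (2.56 to 8.45). With a young Kap1 peak within 5000 bp the share was 12.5%, and without one 3.89% (difference 8.61 points, 2.68 to 15.3).

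**Figure D2:**
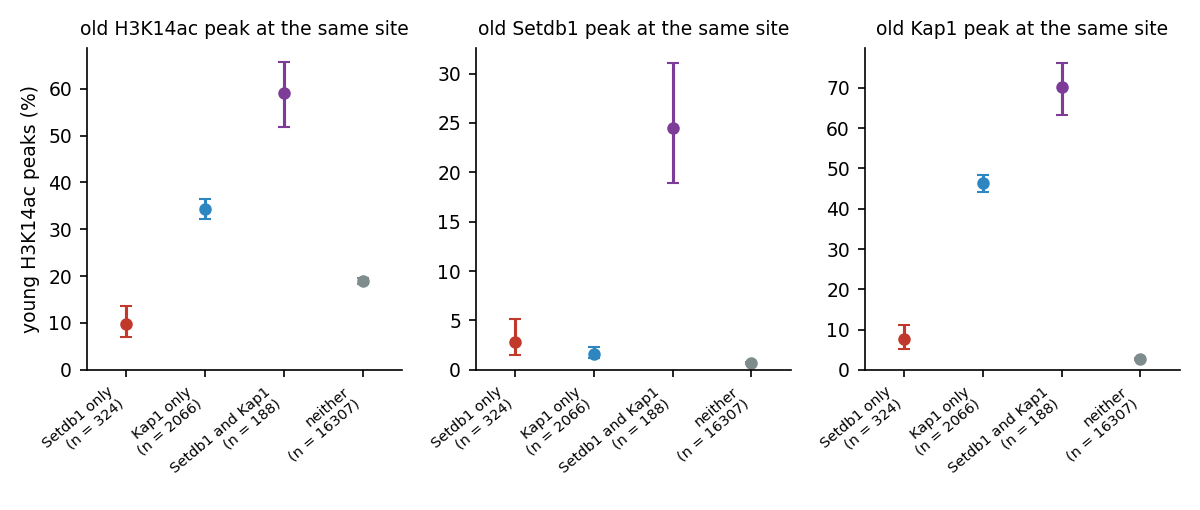
Share of autosomal young H3K14ac peaks (percent, points) with an old H3K14ac (left), Setdb1 (middle) or Kap1 peak (right) sharing at least 1 bp, by class, with 95% Wilson intervals as bars and the vertical scale differing between panels. Setdb1-only peaks are the lowest class for old H3K14ac at 9.88% and lie between neither factor and both factors for old Setdb1 and old Kap1.

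In combination, 267 of the 324 sites had no old peak of any of the 3 lists, and 17.6% (13.8% to 22.1%) had one. The share with any old peak was 26.1% over all young H3K14ac peaks and 21.8% with neither factor, and the difference from the latter (-4.21 points, -8.02 to 0.354) included 0. Old H3K14ac alone was found at 25 sites, old Kap1 alone at 18 and old Setdb1 alone at 6. H3K14ac with Kap1 was present at 5 sites, and 1 site each had H3K14ac with Setdb1, Setdb1 with Kap1, and all 3.

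The share with old H3K14ac was also read near and away from start sites. Within 1 kb of a start site 7 of 30 Setdb1-only peaks had an old H3K14ac peak, or 23.3% (11.8% to 40.9%), against 2320 of 4887 peaks with neither factor, or 47.5%, a difference of -24.1 points (-35.8 to -6.49). These groups were unlike, since a protein-coding start site lay within 1 kb of 15 of the 30 and of 4265 of the 4887. The part of this in the difference was not tested. Farther away the counts were 25 of 294, or 8.50% (5.83% to 12.3%), and 765 of 11420, or 6.70%, a difference of 1.80 points whose interval (-0.914 to 5.58) included 0. All other H3K14ac peaks that far from a start site had 10.8%, and that difference was -2.29 points (-5.02 to 1.496) and included 0 as well. This share was uneven within the class. Without second copies, 17 of the 41 remote sites with a Setdb1 peak wider than 200 bp had old H3K14ac, whereas the 250 with a 200 bp peak had it in 3.2% (1.63% to 6.19%), below the 6.64% (6.20% to 7.12%) of remote single-copy peaks with neither factor. Over all peaks farther than 1 kb from a start site, second copies included, both differences from the Kap1 classes persisted. They were -24.0 points for Kap1 only (-27.5 to -19.7) and -48.6 points for both factors (-56.4 to -40.2). The H3K14ac peaks of the Kap1 classes were wider, with 87.0% and 77.7% of exactly 500 bp against 98.1% of the Setdb1-only peaks. Among remote single-copy peaks the differences were -22.5 and -47.8 points. With these also held at 500 bp they shrank to -17.9 points (-21.3 to -13.6) and -38.4 points (-47.7 to -29.0). For old Setdb1 and old Kap1 the excess over neither factor was present away from start sites as well, at 1.51 points (0.277 to 3.97) and 3.99 points (1.47 to 7.59). With GC content also held under 50% the old Setdb1 difference was 1.16 points (-0.05 to 3.86) and included 0.

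The sites fell into unlike groups by the width of their Setdb1 peak. Setdb1 was called over exactly 200 bp, the commonest width of its list, at 278 sites and over a wider stretch at 46, from 210 bp to 1785 bp with a median of 379 bp. An old H3K14ac peak was found at 19 of the 46 sites with a wide Setdb1 peak, or 41.3% (28.3% to 55.7%), and at 13 of the 278 others, or 4.68% (2.75% to 7.84%), a difference of 36.6 points (23.2 to 51.1). Among sites farther than 1 kb from a start site and without a second genomic copy, the counts were 17 of 41 and 8 of 250, a difference of 38.3 points (24.2 to 53.5). Old Setdb1 peaks were found at 4 of 46 and 5 of 278 (difference 6.90 points, 1.14 to 18.6), and old Kap1 peaks at 7 of 46 and 18 of 278 (8.74 points, 0.323 to 22.0). Farther than 1 kb from a start site and without second copies both of these differences included 0, at 3.28 points (-1.01 to 14.6) and 8.23 points (-0.372 to 22.3).

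The wide Setdb1 peaks were also close to Kap1. A young Kap1 peak lay within 5000 bp of 37 of the 46, or 80.4% (66.8% to 89.3%), and of 107 of the 278, or 38.5% (33.0% to 44.3%), and the median gaps were 1438 bp and 11456 bp. The groups did not differ beyond counting error in their share at start sites (3 of 46 and 27 of 278) or between genes (28 of 46 and 150 of 278). In the same way, sites with both factors and a wide Setdb1 peak had old H3K14ac in 97 of 124 cases and those with a 200 bp peak in 14 of 64, or 78.2% and 21.9%. At equal Setdb1 width class the Setdb1-only sites remained lower than the sites with both factors, with differences of -36.9 points for wide peaks (-51.4 to -20.5) and -17.2 points for 200 bp peaks (-28.9 to -8.25). Since the lists carry no heights, the part of peak strength in this relation was not tested.

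**Figure D3:**
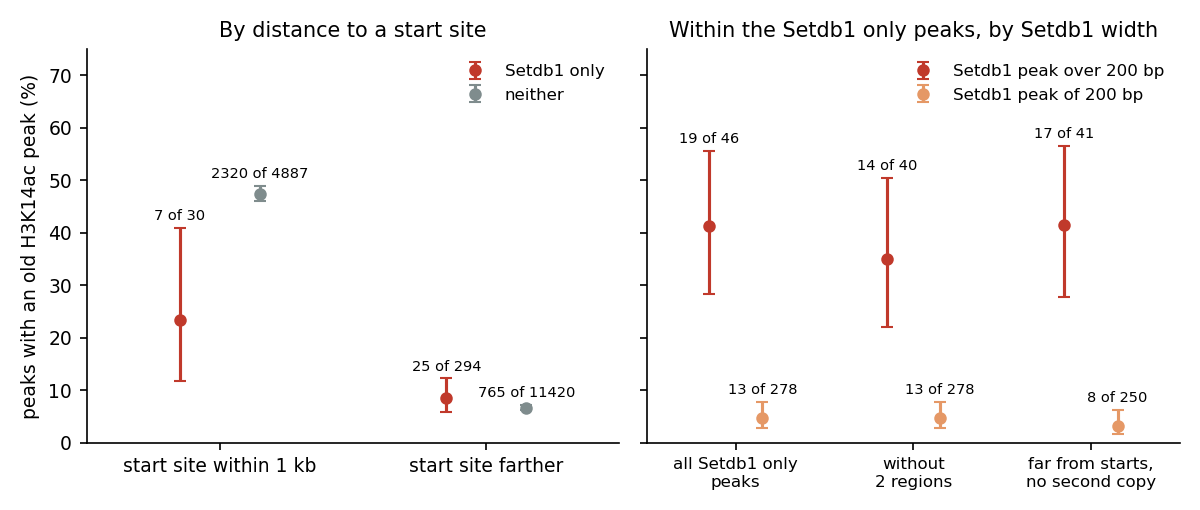
Share of young H3K14ac peaks with an old H3K14ac peak (percent, points, with 95% Wilson intervals as bars and counts above). The left panel sets Setdb1-only peaks against peaks with neither factor, near and far from start sites, and the right panel sets Setdb1-only sites with wide Setdb1 peaks against those with 200 bp peaks. The gap of 24.1 points at start sites is not seen farther away, and wide Setdb1 peaks lie above 200 bp peaks in each of the 3 selections. The groups near start sites were not matched for protein-coding genes.

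Some of the widest sites lay in groups. The widest H3K14ac peak of the class, 1791 bp at chr4:3082730-3084520, stood with 3 others between positions 3079402 and 3084520 of chromosome 4, a stretch without an annotated gene in which 3 of the 4 sites had an old H3K14ac peak and the other an old Setdb1 peak. The second widest, 1243 bp at chr2:98666169-98667411 over the predicted gene Gm10800, was the only site with all 3 old peaks, and a neighbouring site over Gm10801 had old H3K14ac and Kap1. Soft-masked repeats made up 77.6% of the Gm10800 site. Both stretches held peaks of other lists. The 10 kb around Gm10800 held 4 old and 4 young H3K14ac, 3 old Kap1, 1 old Setdb1 and 2 young Setdb1 peaks, and the 20 kb around the chromosome 4 sites held 5 and 8 H3K14ac, 5 and 8 Kap1, and 1 and 4 Setdb1 peaks in old and young liver. Whether the calls in these stretches come from the regions themselves was not tested. Without these 6 sites, a choice made after seeing the data, old H3K14ac was still present at 14 of 40 wide-Setdb1 sites, or 35.0%, against 4.68% (difference 30.3 points, 17.1 to 45.9), but the differences for old Setdb1 (3.201 points, -1.11 to 14.8) and old Kap1 (6.03 points, -1.85 to 19.8) then included 0. The fourth widest lay in Mup6, a major urinary protein gene, at chr4:60006314-60007051, where a 738 bp H3K14ac peak over an exon shared 82 bp with a Setdb1 peak of 1785 bp, lay 31 bp from Kap1 and had an old H3K14ac peak. The fifth widest, 601 bp at chr5:15723562-15724162 between genes, lay 473 bp from Kap1 and had an old Kap1 peak. In total, 318 of the 324 H3K14ac peaks were exactly 500 bp wide.

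The position of Setdb1 within the H3K14ac peaks comes from the overlaps that chose the sites and is given as a description. Among 279 pairs of a 500 bp H3K14ac peak and a 200 bp Setdb1 peak, 143 Setdb1 peaks lay wholly inside, or 51.3% (45.4% to 57.1%), and 94 midpoints lay within 100 bp of each other, or 33.7% (28.4% to 39.4%). Of the 699 positions at which such peaks can share a base, 301 are wholly inside, or 43.1%, and 28.8% have midpoints within 100 bp. With both factors 38 of 63 such pairs, or 60.3%, had Setdb1 wholly inside, and 39.7% had midpoints within 100 bp. The median distance between midpoints was 146 bp, with quartiles of 72 bp and 250 bp. All but 2 of the sites carried a single Setdb1 peak, the median overlap was 200 bp, and 35 sites shared under 50 bp.

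**Figure D4:**
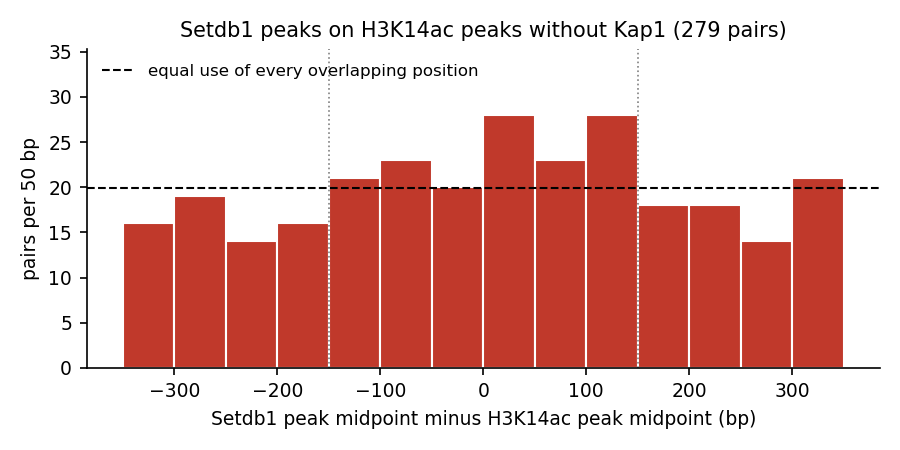
Distance from the midpoint of the H3K14ac peak to the midpoint of the Setdb1 peak (bp) for the 279 pairs of 500 bp and 200 bp peaks, in bins of 50 bp. The dashed line is the height for equal use of all overlapping positions, and dotted lines bound the positions wholly inside, which hold 51.3% of the pairs.

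The 324 Setdb1 peaks at these sites were set beside the Setdb1 list at large. They were wider than 200 bp in 45 cases, or 13.9% (10.5% to 18.1%), against 2.77% of 49271 autosomal young Setdb1 peaks. Old Setdb1 overlapped 7 of these peaks, or 2.16% (1.05% to 4.39%), against 0.869% of the whole list, and 8.02% (5.53% to 11.5%) lay within 1 kb of a start site, against 4.38%. The whole list contains these 324 peaks, and a wider peak has more chance to overlap H3K14ac, so these values describe the selection and were not tested. Among sites with both factors, 124 of 188 had a wide Setdb1 peak.

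Few promoters were among the sites. A protein-coding start site lay within 1 kb of 15 of them, or 4.63%, against 23.4% of all young H3K14ac peaks, and the differences from the 6.20% with Kap1 only and the 3.19% with both factors included 0. Of the 15, 3 had an old H3K14ac peak. The first of the 3 was the Gm10800 site, and the second spanned the start of Obox6, an oocyte-specific homeobox gene, at chr7:15839266-15839765, where 325 bp were shared with Setdb1. The third, at chr3:146500014-146500513, covered the start of Gng5, which encodes a G protein gamma subunit, and lay 261 bp from that of Spata1, and it had a GC content of 67.8% and a ratio of observed to expected CpG of 0.844.

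At the other 12 start sites no old H3K14ac peak was found. Those sharing the full 200 bp were at Dctn6 (a subunit of dynactin, chr8:34108117-34108616), Spata46 (a spermatogenesis gene, chr1:170308689-170309188), the olfactory receptor gene Olfr769 (chr10:129112272-129112771), and the divergent pair Fastkd3, of mitochondrial RNA metabolism, and Mtrr, methionine synthase reductase (chr13:68582431-68582930). Cdh3 shared 189 bp, Olfr821 135 bp, the defensin gene Defb5 105 bp (chr8:19247320-19247819), and the pair Lysmd1 and Scnm1 60 bp (chr3:95133419-95133918). Dctn6, Fastkd3 with Mtrr and Cdh3 had GC contents of 62.6%, 53.4% and 63.8% over the H3K14ac peak, while Olfr769 and Olfr821 had 37.8% and 34.2%.

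Few named genes were found at sites with an old Setdb1 or old Kap1 peak. Of the 9 sites with old Setdb1, 7 lay between genes, and the other 2 were over Gm10800 and Gm17154. For old Kap1 the sites in or near genes other than predicted ones (Gm names) were Clec4a3, a C-type lectin gene whose start lay 506 bp away, Lgi4 over an exon, the olfactory receptor gene Olfr613 over an exon, and introns of Pknox2, Mboat2, Dnah12 and Pebp4. The predicted genes over which a site had old Kap1 were Gm10800, Gm10801, Gm17154 and Gm49121. Lgi4 at chr7:31067260-31067759 also had an old H3K14ac peak.

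None of the listed liver and regulatory genes was met. The class touched, in the gene body or within 1 kb of a start site, none of 277 annotated genes from 7 lists that covered hepatocyte markers, lipid and cholesterol metabolism, the glucose and insulin pathway, the circadian clock, chromatin writers, erasers and readers, other liver cell types, and inflammation and stress response. Within 5 kb the number was also 0. All autosomal young H3K14ac peaks together touched 139 of these genes, or 50.2%, with 68.9% of the hepatocyte markers and 7.89% of the markers of other liver cell types. Over all protein-coding genes the class touched 121 of 20780, or 0.582%, a rate that corresponds to 1.61 of 277 genes, and all young H3K14ac peaks touched 5939, or 28.6%. A count of 0 therefore does not set the listed genes apart from other genes.

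Among the 161 annotated genes that were touched, several are well known, and the following were chosen after their values were seen. An intron of Smo, the Hedgehog signal transducer, held a 289 bp Setdb1 peak wholly within H3K14ac and had an old H3K14ac peak (chr6:29748210-29748709). Old H3K14ac was also found at an intron of S100a10 (208 bp shared) and an intron of Smap2 (230 bp shared). None was found at an intron of Egfr, the epidermal growth factor receptor, with 97 bp shared, or at introns of Alox5 (129 bp), Cyp2b19 (114 bp) and Tyr (200 bp), the last encoding tyrosinase of melanocytes. Gene families were counted as well, by gene symbol (Vmn, Olfr and Zfp), so family members under other names were not included. Vomeronasal receptor genes were touched at 6 sites, or 1.85% (0.851% to 3.98%), against 0.646% of all young H3K14ac peaks, 0.503% (0.405% to 0.624%) of those with neither factor and 1.60% with Kap1 only. Olfactory receptor genes were touched at 3 sites (0.926%, 0.315% to 2.69%) against 0.535% of all young H3K14ac peaks and 0.521% with neither factor, and zinc finger genes also at 3 sites (0.926%, 0.315% to 2.69%), an interval that included the 1.77% of all young H3K14ac peaks and the 1.58% of peaks with neither factor. Zinc finger genes were at 3.19% with Kap1 only and 4.26% with both factors.

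Across the genome the sites were spread over all 19 autosomes. Chromosome 4 held the most, 31, but it also had the most young H3K14ac peaks, 1719, so that its share of 1.80% was near the 1.72% of all autosomes. The highest shares were 2.47% on chromosome 2 and 2.44% on chromosome 15, and the lowest was 0.857%, or 4 sites, on chromosome 16. Of the 1 Mb windows with any site, 201 held 1, 39 held 2 and 10 held 3. The fullest, on chromosome 1 from 85000001 to 86000000, held 6 sites, over Sp100 and Itm2c among others, and 148 young H3K14ac peaks in all. A window on chromosome 12 from 24000001 to 25000000 held 5 sites, of which 3 lay in introns of Grhl1 and Mboat2 and the other 2 overlapped no gene. Another young H3K14ac peak lay within 5000 bp of 29.6% of the Setdb1-only peaks and of 32.1% of those with neither factor (difference -2.49 points, -7.26 to 2.74). The share was 36.7% over all young H3K14ac peaks (difference from all others -7.20 points, -12.0 to -1.97) and 70.9% with Kap1 only. Another peak of the young Setdb1 list, which the definition used, lay within 5000 bp of 83 sites, or 25.6%, against 20.2% of all young H3K14ac peaks, 18.8% with neither factor, 29.1% with Kap1 only and 37.8% with both factors.

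In base composition the sites resembled other H3K14ac peaks away from promoters. Their median GC content was 45.0% (quartiles 41.2% and 49.0%) and that of peaks with neither factor 47.4% (42.2% and 54.8%). Farther than 1 kb from start sites both medians were 44.8%. The ratio of observed to expected CpG, which is high in CpG islands, had medians of 0.125 and 0.189, and of 0.122 and 0.140 away from start sites. It reached 0.6 in 8 of the 324, or 2.47%, against 16.6% of all young H3K14ac peaks, 18.8% of peaks with neither factor and 2.23% of those with Kap1 only (difference from the last 0.24 points, -1.17 to 2.63). Soft-masked repeats covered at least 50% of the peak in 65 sites, or 20.1% (16.1% to 24.8%), against 13.9% of all young H3K14ac peaks, 11.7% with neither factor, 28.2% with Kap1 only and 30.9% with both factors. Away from start sites the median soft-masked share was 17.6% against 17.2% with neither factor, but the upper quartiles were 44.95% and 36.8%. The 65 repeat-rich sites had an old Setdb1 peak in 5 cases and the 259 others in 4, a difference of 6.15 points (1.19 to 15.3).

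A second near-identical copy in the genome was found for 5 sites, or 1.54% (0.661% to 3.56%), close to the background of 2.05%, against 9.78% with Kap1 only. At 2 of the 5 there was an old Setdb1 peak. Without such copies 7 of 319 sites had one, or 2.19% (1.07% to 4.46%), which remained above the 0.657% of peaks with neither factor by 1.54 points (0.402 to 3.81).

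Short motifs of liver and general factors, 11 in all, were searched on both strands of the 318 sites of 500 bp and of the other 500 bp peaks. The motif TGANTCA of AP-1 was found in 58 sites, or 18.2% (14.4% to 22.9%), against 13.2% of all 500 bp peaks. Away from start sites it was in 17.6% (13.7% to 22.5%) against 15.2%, so that the interval included the value of all peaks. GGGCGG of SP factors was in 6.92% against 18.9%, and in 4.50% against 5.87% away from start sites. The core AGGGGGC of CTCF was in 4.09% against 8.47%, and in 3.46% against 5.45% away from start sites. CCGGAAGT of ETS factors was in 0 of 318 (Wilson upper limit 1.19%) against 1.39%, and away from start sites in 0 of 289 (upper limit 1.31%) against 0.383%, which lies within that limit. The other motifs differed by less than the width of the interval of the sites, with TGTTTAC of FOXA in 6.92% against 6.31%, CACGTG in 5.35% against 6.00%, TTGGCNNNN of NFI in 56.3% against 58.2%, ATCGAT of Onecut in 1.57% against 1.33%, CAAAGTCCA of HNF4A in 0.629% against 0.836%, TTGCGCAA of C/EBP in 0.314% against 0.0977% and the CArG box in 3.46% against 2.49%. Of the printed sequences, those at Dctn6 and at the chromosome 16 site hold GGGCGG on a strand, and that at Cdh3 holds TGANTCA and the NFI motif. That at Olfr821 holds the NFI motif, but outside the bases shared with the H3K14ac peak. A match of letters is a description of the sequence and not of a bound factor.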

How the data were processed

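The authors mapped reads with BWA (mm10, that is GRCm38), dropped duplicates and reads without a unique position, merged the livers of each age and ran PeakSeq with input as control. H3K14ac was read on another sequencer (HiSeq) than Setdb1 and Kap1 (NextSeq). The deposited lists hold positions only (chromosome, start and end, without a score, height or q-value). From these, overlaps of at least 1 bp were counted in Python 3.11.15, and the class counts were checked against bedtools 2.31.1 and on 4000 simulated peaks with planted overlaps. Genes and start sites came from GENCODE M21 (basic), and sequence from the GRCm38.p6 reference. Second copies were matches of at least 95% identity over at least 90% of the central 500 bp, found with minimap2 2.31. Shares carry 95% Wilson intervals and differences of shares 95% Newcombe intervals, and the pooled lists allow no test across livers. The class and the gene lists were chosen with earlier results of these data known. Genes were named by rule: list genes, up to 15 protein-coding start sites with and 10 without old H3K14ac by bp shared with Setdb1, the 5 widest sites, sites with old Setdb1 or Kap1, and the fullest 1 Mb window. The other named genes were chosen after their values were seen. Splits by start site, Setdb1 width, repeats and families were chosen after seeing the data.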

Additional observations from a re-analysis of the deposited data

How the results depend on the processing

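Other overlap rules, windows and selections gave 38 values for the number of sites, their shares with old peaks or near start sites, and their median GC content. Of these, 29 stayed within 1.5 times the number of sites, within the Wilson interval of a share or within 1 SD of the GC content, and 9 moved beyond that. With a Setdb1 peak allowed within 500 bp there were 656 sites, and with no Kap1 peak within 5000 bp there were 180, of which 6.11% had an old H3K14ac and 3.89% an old Kap1 peak, and the cause of the lower shares was not tested. An old Setdb1 peak lay within 5000 bp of 14.2% of the sites, and an old Kap1 peak within 500 bp of 13.6% and within 5000 bp of 34.6%. For old H3K14ac the share within 5000 bp was 27.2%, against 9.88% by overlap. That share is not among the 38 values. A start site lay within 5 kb of 24.1%, and a protein-coding one within 1 kb of 4.63%. The differences from peaks with neither factor kept their direction at 500 bp and 5000 bp for old H3K14ac (-11.2 and -10.7 points), old Setdb1 (2.87 and 7.73 points) and old Kap1 (8.21 and 16.1 points). No paired analysis was possible because the replicates of an age were pooled before peaks were called. Leaving out a replicate was not possible for the same reason. The number of reads behind each list is unknown, and the lists differ in size between ages, so absence from an old list does not show absence of the mark.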
